A study of Mus musculus with 8 samples.

Results

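The pyruvate dehydrogenase kinases and the genes of pyruvate entry into mitochondria were followed in white fat of mice given endostatin, a collagen XVIII fragment known to restrain blood vessel growth. The set holds 9 of the 37048 gene features in the data: the kinases Pdk1, Pdk2, Pdk3 and Pdk4, the phosphatases Pdp1 and Pdp2, the catalytic subunit gene Pdha1 and the carrier genes Mpc1 and Mpc2. They were listed by name and chosen by measured values, namely their fold change after endostatin in each batch and their difference between batches, so those values are given below as descriptions and support nothing by themselves. All 9 were present in all 8 libraries and all 9 passed the filter on low counts.

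The endostatin group held 4 libraries from female wild-type C57BL/6J mice given 50 mg/kg endostatin through the tail vein. The control group held 4 libraries from mice of the same sex, strain and genotype given phosphate-buffered saline (PBS) by the same route. In both groups the tissue was collected 2 h after the injection, in the daytime, with food withheld over that time. Batch 2 held endostatin 3 and 4 with control 3 and 4, and batch 1 held endostatin 1 and 2 with control 1 and 2. What the batches stand for is not given in the labels. The labels name the tissue as epididymal white adipose tissue although the mice are female, and they give no age. Whether the 4 mice of the series text make up one group or all of them is left unsaid, and no label ties a library to an animal. The p-values therefore measure only the spread between these libraries, part of which may be technical.

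The endostatin libraries held 17197721 to 23786594 estimated counts and the control libraries 15826783 to 19221886. The 7 white adipocyte markers were detected in every library and summed to 38249 to 43934 TPM (transcript abundance per length, with an equal sum in all libraries) in the endostatin group and 25894 to 50287 TPM in the control group. Transcripts of other tissues differed between libraries. The 12 oviduct and uterus markers reached a sum of 451 TPM in endostatin 4 and of 699 TPM in control 3, while the remaining 6 libraries had 28.4 to 66.6 TPM. In endostatin 4, Ltf alone gave 298 TPM of this sum, with Krt8 at 57.2 TPM and Epcam at 32.4 TPM. Pgr and Ovgp1 stood at 5.08 and 0.719 TPM there, against 97.2 and 12.7 TPM in control 3. For the 13 markers of skeletal muscle the sum was 518 TPM in control 4, 271 TPM in control 1 and 34.1 to 107 TPM elsewhere. Acta1 alone gave 98.6 TPM of the sum in endostatin 4. Ckm stood at 0.858 TPM there, against 57.0 TPM in control 4 and 35.1 TPM in control 1. The label of endostatin 4 repeats the read file stub of endostatin 3, but the counts of these libraries differ (Pearson r = 0.974 across genes on a log scale).

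Pyruvate made by glycolysis enters the mitochondrial matrix through a carrier built from the products of Mpc1 and Mpc2. There the pyruvate dehydrogenase complex turns it into acetyl-CoA, which in fat feeds the tricarboxylic acid cycle and, as exported citrate, the synthesis of fatty acids. The kinases phosphorylate the E1 alpha subunit encoded by Pdha1 and switch the complex off, and the phosphatases reverse this. Pdk4 is the kinase best known for its induction by fasting, by fatty acids through the PPAR receptors, by glucocorticoids and by FOXO factors, and insulin lowers it.

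Of the members, 8 had an entry in the RefSeq promoter table (GRCm38.p6), with 11 start sites among them. The 250 bases before the start are shown for Pdk4, on which the results turn, and for the first listed start of Pdk2, the other kinase with a high level. Capitals mark matches to 6 motifs that were searched on both strands: the TATA box TATAAA, the CCAAT box CCAAT, the GC box GGGCGG, the E-box CACGTG, the nuclear receptor half-site AGGTCA and the forkhead motif TGTTTAC.
Pdk4, chr6:5496279-5496528, minus strand: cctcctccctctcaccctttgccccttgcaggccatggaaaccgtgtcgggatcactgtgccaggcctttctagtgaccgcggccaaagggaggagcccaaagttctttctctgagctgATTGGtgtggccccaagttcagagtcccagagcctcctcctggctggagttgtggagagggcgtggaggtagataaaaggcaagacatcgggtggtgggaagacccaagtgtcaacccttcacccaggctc
Pdk2, chr11:95041372-95041621, minus strand: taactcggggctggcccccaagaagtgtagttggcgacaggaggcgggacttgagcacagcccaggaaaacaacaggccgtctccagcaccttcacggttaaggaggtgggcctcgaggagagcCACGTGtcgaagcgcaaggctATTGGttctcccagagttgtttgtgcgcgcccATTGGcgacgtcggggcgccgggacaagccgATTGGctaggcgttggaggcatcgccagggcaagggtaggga
The Pdk4 window held 1 CCAAT box, read on the opposite strand (ATTGG) from 131 to 127 bases before the start, and no match to the other 5 motifs. The Pdk2 window held 3 CCAAT boxes, all on the opposite strand, and 1 E-box. None of these matches overlapped another. Among 32851 windows of the same length, 33.9% held a CCAAT box, 6.02% the E-box, 12.4% the TATA box, 32.7% the GC box, 14.0% the half-site and 3.17% the forkhead motif. A match describes letters and not a bound site, and no binding was measured here.

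The 9 genes were expressed at levels that differed widely, with the carrier and the E1 subunit above the kinases and the kinases mostly above the phosphatases. Over the 8 libraries Mpc1 averaged 502 ± 204 TPM (SD, n = 8), Pdha1 326 ± 72.3 TPM and Mpc2 239 ± 61.6 TPM. Among the kinases Pdk2 averaged 108 ± 31.6 TPM, Pdk4 71.3 ± 60.1 TPM, Pdk1 34.0 ± 8.34 TPM and Pdk3 8.62 ± 4.26 TPM. The phosphatases Pdp2 and Pdp1 averaged 17.5 ± 1.48 TPM and 11.5 ± 1.36 TPM. Neighbours in this order were compared by the ratio of their TPM within each library, with an exact two-sided sign-flip permutation test adjusted over the 8 pairs. For 5 pairs the difference passed the threshold of 0.05, with adjusted p = 0.0156 for Mpc1 over Pdha1, Pdha1 over Mpc2, Pdk1 over Pdp2 and Pdp2 over Pdp1, each from the smallest unadjusted p that 8 libraries allow (exact p = 0.00781), and 0.025 for Mpc2 over Pdk2. Pdk2 over Pdk4 (exact test, adjusted p = 0.0625, Pdk2 higher in 6 of 8 libraries), Pdk4 over Pdk1 (0.234, Pdk4 higher in 4 of 8) and Pdp1 over Pdk3 (0.0625, Pdp1 higher in 7 of 8) did not pass. Pdk4 lay above Pdk1 in every library of batch 2 (means of 115 and 29.4 TPM). In every library of batch 1 it lay below Pdk1 (means of 27.5 and 38.6 TPM). The order of the means over both batches was the same when each library was left out in turn and with protein-coding transcripts alone. The comparisons of Pdk1 with Pdp2 and of Pdk2 with Pdk4 did depend on the transcripts used. The protein-coding Pdk1-201 averaged 18.0 TPM, against 17.5 TPM for Pdp2. It lay below Pdp2 in control 2, control 3, endostatin 3 and endostatin 4. For Pdk4, protein-coding transcripts alone stood at 0.216 to 0.989 times those of Pdk2 in the endostatin group and 0.222 to 0.689 times in the control group. Pdk2 was then higher in all 8 libraries.

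Pdk4 was the member whose level varied most between libraries. In batch 2 it stood at 163 and 230 CPM (counts scaled to library size with TMM factors) in endostatin 3 and 4, against 90.1 and 90.8 CPM in control 3 and 4. In batch 1 it stood at 32.3 and 43.4 CPM in endostatin 1 and 2, against 63.2 and 59.6 CPM in control 1 and 2. Both endostatin libraries thus lay above both controls in batch 2 and below both controls in batch 1, and all libraries of batch 2 lay above all libraries of batch 1. The highest library was at 7.14 times the lowest, against 1.42 to 4.47 times for the other members. With both batches together, Pdk4 averaged 117 ± 95.8 CPM in the endostatin group and 75.9 ± 16.8 CPM in the control group (SD, n = 4 each), and these groups overlapped.

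In the model fitted over all genes, the log2 fold change of Pdk4 after endostatin was 1.12 ± 0.21 (SE, 95% interval 0.63 to 1.61) in batch 2 and -0.70 ± 0.21 (-1.19 to -0.21) in batch 1. The difference of these effects, batch 2 minus batch 1, was 1.82 ± 0.29 (1.13 to 2.51). Over both batches the log2 fold change was 0.22 ± 0.37 (-0.63 to 1.07). Batch 2 exceeded batch 1 by 1.47 ± 0.37 (0.61 to 2.33) on the log2 scale. For Pdk4, over the 15185 genes tested, edgeR's quasi-likelihood test gave adjusted p = 0.997 for the difference of the effects and adjusted p = 0.432 for the batch term, so neither passed. For the same terms DESeq2 gave adjusted p = 0.000257 and adjusted p = 0.00468, and limma-voom gave adjusted p = 0.999 and adjusted p = 0.424. Pdk4 was listed with these differences known, so none of these values is independent evidence for them.

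**Figure D1:**
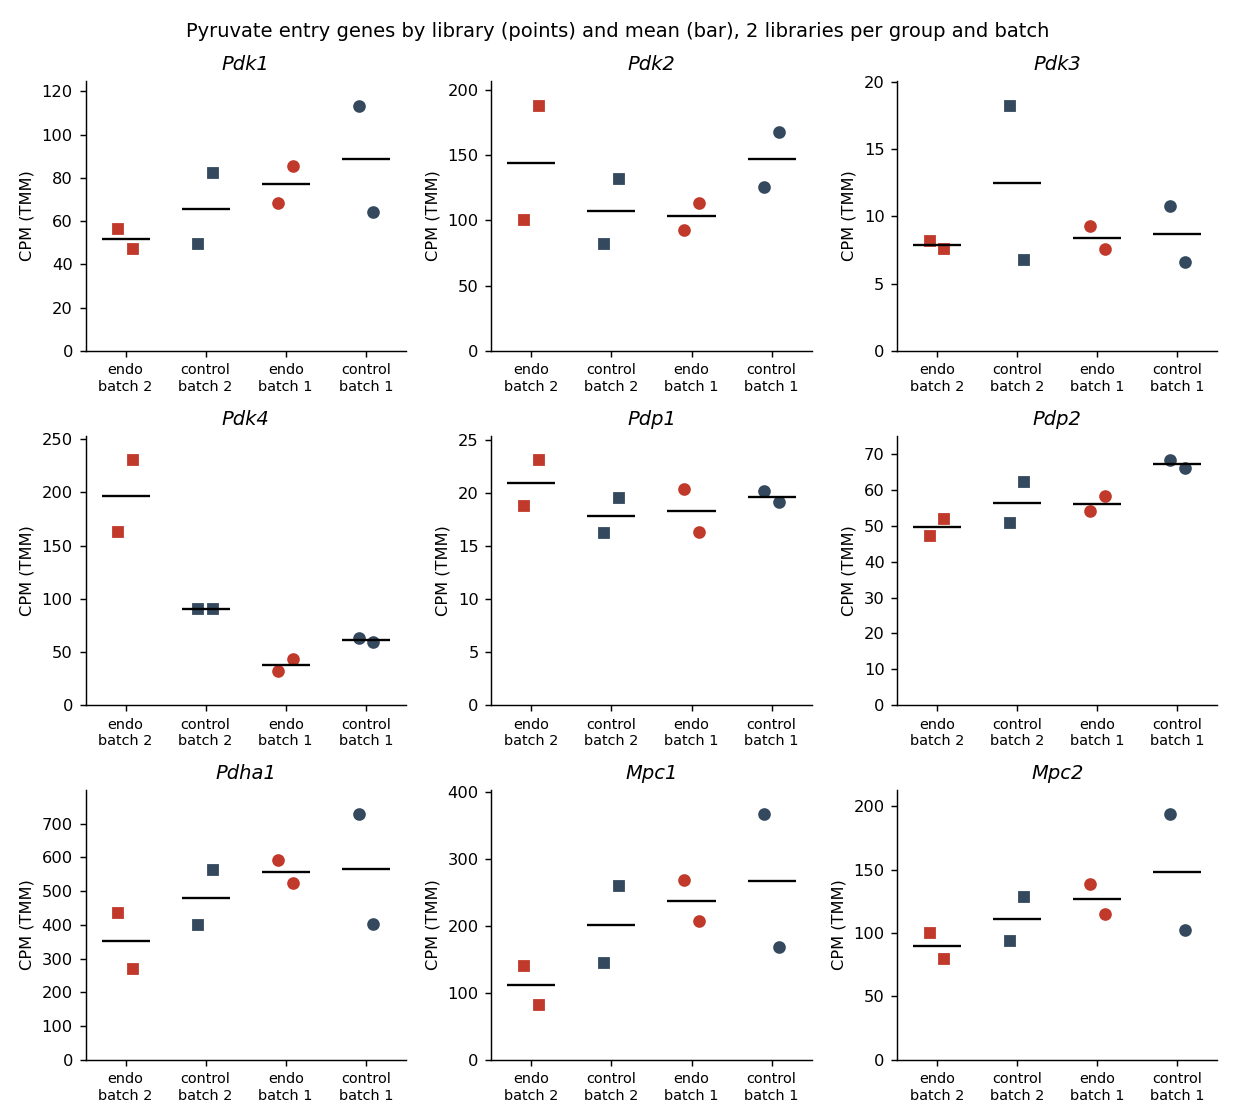
Level of each of the 9 genes in CPM (TMM scaled) in every library, with endostatin (endo) left of control and batch 2 left of batch 1. Points are libraries and bars are means of 2 libraries. Pdk4 lies at 163 and 230 CPM in the endostatin libraries of batch 2 and at 32.3 and 43.4 CPM in those of batch 1, with the controls between them.

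The pattern of Pdk4 is read against how often it occurs. Of all genes tested, 284 (1.87%) had no overlap in either batch, with endostatin lower in batch 1 and higher in batch 2, and 4.51% went opposite ways in either order. Batch 2 lay above batch 1 without overlap in 3.13% of genes, and the batches did not overlap in either direction in 6.42%. Among the members Pdk4 met each of these criteria, and no other member did. No member separated the 4 endostatin from the 4 control libraries, which 1.64% of all genes did. Within single batches, Pdk4 was above the controls without overlap in batch 2, as were 14.7% of all genes. Mpc1 was below them in batch 2, as were 13.5%, and Pdk2, Pdk4 and Pdp2 were below them in batch 1, as were 15.3%.

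Other tissues and cell types were read beside Pdk4, because in bulk tissue fewer cells of a type and less RNA per cell cannot be told apart. The 7 macrophage markers, all detected in every library, summed to 1685 and 1741 TPM in endostatin 3 and 4, against 868 and 915 TPM in control 3 and 4. In batch 1 they summed to 989 and 1024 TPM in endostatin 1 and 2, against 776 and 1160 TPM in control 1 and 2. These markers were thus highest in the same 2 libraries as Pdk4, and their part in its level was not tested. The 13 markers of skeletal muscle, a tissue known for Pdk4, summed to 62.2 and 107 TPM in endostatin 3 and 4 and to 47.5 and 518 TPM in control 3 and 4, with 5 of them at 0 in endostatin 4. Acta1 alone gave 54.5 and 98.6 TPM of these sums in endostatin 3 and 4, and 36.5 and 222 TPM in control 3 and 4. In batch 1 the muscle sum was 58.5 and 68.3 TPM in endostatin 1 and 2 and 271 and 34.1 TPM in control 1 and 2. The 7 fibroblast and progenitor markers summed to 2371 to 4097 TPM in the endostatin group, with the highest sum in endostatin 4, and to 1978 to 3007 TPM in the control group. The 6 brown adipocyte markers summed to 252 TPM in control 3 and to 30.1 to 75.7 TPM in the other libraries. The 10 hepatocyte markers, taken without Cyp2e1 and Trf for their high levels, summed to 28.7 and 1000.1 TPM in endostatin 3 and 4. Their sum was 17.1 and 25.9 TPM in control 3 and 4. In batch 1 it was 344 and 522 TPM in endostatin 1 and 2, against 154 and 106 TPM in control 1 and 2. The part of these transcripts in the level of Pdk4 was not tested. The fold change of Pdk4 over both batches did not keep its sign: it was below 0 without control 3, without control 4, without endostatin 4, and without control 3 and endostatin 4 together.

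The deposited transcripts of Pdk4 were not equally deep. Pdk4-201, the protein-coding transcript of 3484 bases, held 96.3% to 100% of the gene's estimated counts in each library. Its level was 82.8 and 119 TPM in endostatin 3 and 4 and 51.1 and 43.0 TPM in control 3 and 4, then 16.5 and 21.2 TPM in endostatin 1 and 2 and 29.6 and 29.1 TPM in control 1 and 2. The main transcript therefore had the same order of groups as the gene. Pdk4-202, a short retained-intron transcript of 412 bases, had 77.9 and 143 estimated counts in endostatin 3 and 4 and 50.4 and 52.8 in control 3 and 4. In batch 1 it had 3.84 and 30.8 estimated counts in endostatin 1 and 2 and 0 in both controls, where a count of 0 allows up to 3. That bound covers counting error only, and the division of reads between Pdk4-202 and Pdk4-201 is uncertain. Because Pdk4-202 is so short, these few counts gave up to 70.1 TPM, in endostatin 4. Scaling the counts by effective length moved the log2 fold change of Pdk4 in batch 1 to -0.29 and the difference of the batch effects to 1.40.

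**Figure D2:**
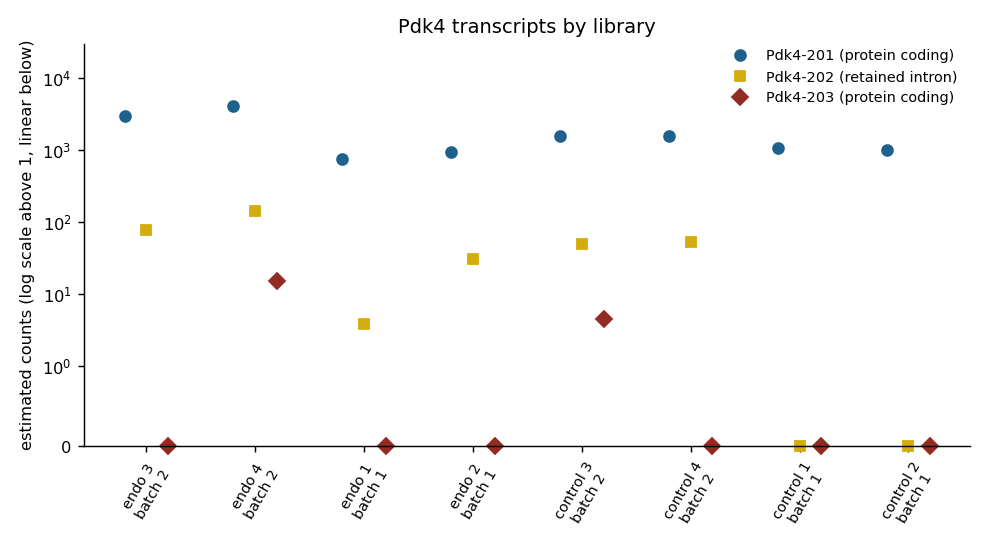
Estimated counts of the 3 Pdk4 transcripts in each library, on an axis that is logarithmic above 1 and linear below, with endostatin (endo) left of control. Pdk4-201 holds 96.3% to 100% of the counts, and the retained-intron transcript is at 0 in control 1 and control 2.

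Pdk2, a kinase expressed in most tissues, had the highest mean level of the 4 kinases and no shared direction. It stood at 100.4 and 188 CPM in endostatin 3 and 4, against 82.1 and 132 CPM in control 3 and 4. The batch 1 values were 92.6 and 114 CPM in endostatin 1 and 2, against 126 and 168 CPM in control 1 and 2. The groups overlapped in batch 2, and in batch 1 both endostatin libraries lay below both controls. The log2 fold change was 0.43 ± 0.35 in batch 2, -0.51 ± 0.35 in batch 1 and -0.04 ± 0.29 over both (95% interval -0.71 to 0.63). Without endostatin 4 the batch 2 value turned negative. Endostatin 4 was also the library with the most hepatocyte transcripts: 10 markers, left after Cyp2e1 and Trf with their high levels were taken out, summed to 28.7 and 1000.1 TPM in endostatin 3 and 4, 17.1 and 25.9 TPM in control 3 and 4, 344 and 522 TPM in endostatin 1 and 2, and 154 and 106 TPM in control 1 and 2. Their part in the level of Pdk2 was not tested. Pdk2 and Pdk4 were the kinases whose fold changes had opposite signs in the batches.

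Pdk1, known as a target of the hypoxia factor HIF-1, was at 56.1 and 47.0 CPM in endostatin 3 and 4, against 49.5 and 82.0 CPM in control 3 and 4. The libraries of batch 1 gave 68.5 and 85.4 CPM in endostatin 1 and 2, against 113 and 64.4 CPM in control 1 and 2. The groups overlapped in both batches, and the log2 fold change over both was -0.28 ± 0.22 (95% interval -0.78 to 0.22). Its protein-coding transcript Pdk1-201 held 65.7% to 83.2% of the gene's estimated counts, and the remainder was assigned to 7 transcripts annotated as processed. Pdk3, the kinase with the lowest level in this tissue, stood at 7.58 to 9.26 CPM in the 4 endostatin libraries and at 6.59 to 18.2 CPM in the 4 controls, with 113 to 330 estimated counts. Its highest value was in control 3, the library with the most oviduct and uterus transcripts. The log2 fold change of Pdk3 was -0.35 ± 0.33 (-1.11 to 0.41) and was above 0 (at most 0.06) when control 3 was left out, alone or with endostatin 4.

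The make-up of the kinase transcripts differed between the batches. Pdk4 held 48.6% and 48.7% of the summed kinase TPM in endostatin 3 and 4, against 37.7% and 30.5% in control 3 and 4. It held 13.1% and 18.6% in endostatin 1 and 2, against 16.1% and 14.4% in control 1 and 2. Pdk2 held the largest share in all libraries except endostatin 3 and 4, where Pdk4 did. With protein-coding transcripts alone, Pdk2 was largest in all 8 libraries, and Pdk4 held 44.4% and 40.8% in endostatin 3 and 4, against 32.6% and 25.0% in control 3 and 4. The order of these shares rests on the Pdk4 values already described and is no separate result. The summed kinase level was 246 and 397 TPM in endostatin 3 and 4, and 213 and 220 TPM in control 3 and 4. It was 138 and 178 TPM in endostatin 1 and 2, and 184 and 202 TPM in control 1 and 2. With protein-coding transcripts alone the sum was 187 and 303 TPM in endostatin 3 and 4, and 161 and 172 TPM in control 3 and 4. Batch 1 then had 121 and 142 TPM in endostatin 1 and 2, and 160 and 182 TPM in control 1 and 2.

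**Figure D3:**
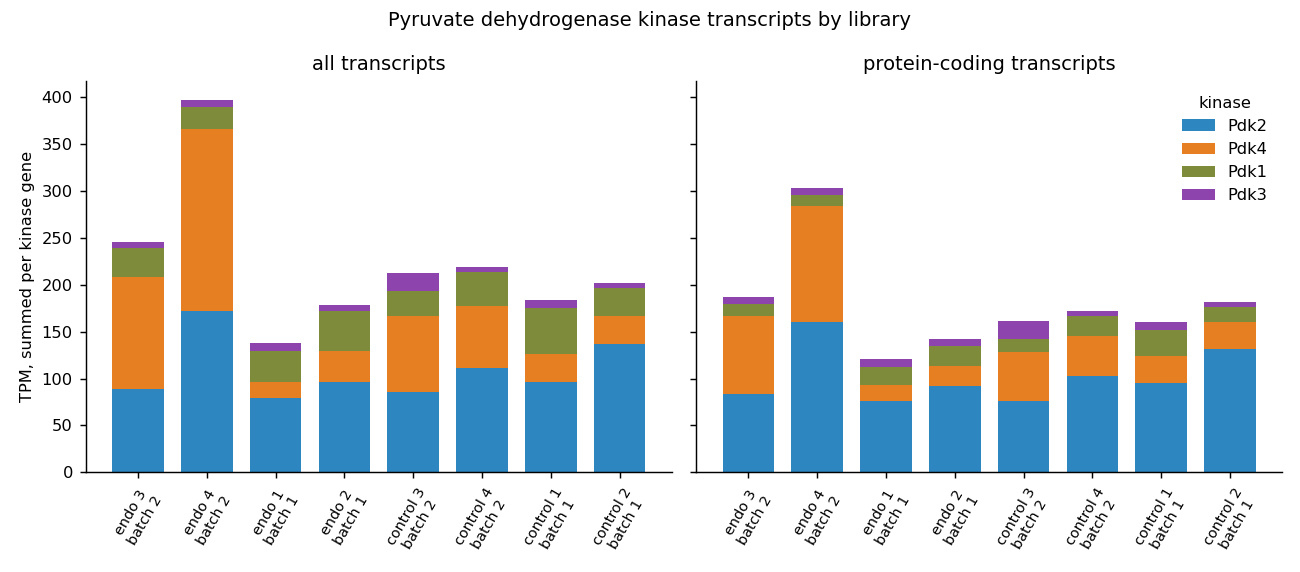
Stacked TPM of the 4 kinases in each library, with all annotated transcripts (left) and with protein-coding transcripts alone (right), endostatin (endo) left of control. The sum is highest in endostatin 4 (397 TPM with all transcripts, 303 TPM with protein-coding ones) and lowest in endostatin 1 (138 and 121 TPM).

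The phosphatases varied least. Pdp2, whose product reactivates the complex and, unlike that of Pdp1, is not known to be stimulated by calcium, was at 47.2 and 52.0 CPM in endostatin 3 and 4, against 50.6 and 62.2 CPM in control 3 and 4. The batch 1 values of Pdp2 were 54.0 and 58.2 CPM in endostatin 1 and 2, against 68.3 and 66.1 CPM in control 1 and 2. Both endostatin libraries lay below both controls in batch 1, and the groups overlapped in batch 2. The log2 fold change over both batches was -0.22 ± 0.09 (95% interval -0.43 to -0.02), with an unadjusted p of 0.0367 and an adjusted p of 1.00 in edgeR's quasi-likelihood test. It was below 0 in 20 of 20 alternatives, from -0.31 to -0.13. Unadjusted p-values under 0.05 were found for 485 genes, 3.19% of those tested.

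Pdp1, the calcium-stimulated phosphatase, stood at 16.3 to 23.1 CPM in the endostatin libraries and at 16.3 to 20.2 CPM in the controls, and the groups overlapped. Its log2 fold change was 0.06 ± 0.14 (95% interval -0.25 to 0.38). The reads were divided among 5 protein-coding transcripts, of which Pdp1-203 held 31.6% to 48.2% of the estimated counts and the other 4 between 0% and 42.3%. Which of these isoforms a read came from is uncertain. The summed phosphatase level lay between 25.7 and 31.1 TPM in all libraries, so the ratio of kinase to phosphatase TPM followed the kinases. That ratio was 9.57 and 12.8 in endostatin 3 and 4, and 7.25 and 7.47 in control 3 and 4. It was 4.76 and 6.53 in endostatin 1 and 2, and 6.15 and 6.69 in control 1 and 2. With protein-coding transcripts alone it was 7.26 and 9.74 in endostatin 3 and 4, and 5.48 and 5.86 in control 3 and 4. Batch 1 then had 4.17 and 5.19 in endostatin 1 and 2, and 5.37 and 6.01 in control 1 and 2. The controls of the batches overlapped in that case.

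Pdha1, the regulated E1 alpha subunit, was at 435 and 270 CPM in endostatin 3 and 4, against 398 and 563 CPM in control 3 and 4. The libraries of batch 1 gave 591 and 525 CPM in endostatin 1 and 2, against 727 and 403 CPM in control 1 and 2. The groups overlapped in both batches, with the lowest value in endostatin 4 and the highest in control 1. The log2 fold change over both was -0.23 ± 0.25 (95% interval -0.81 to 0.34). Pdha2, the testis form of the same subunit, had 0 counts in all 8 libraries, which allows up to 3 counts in each. The kinase TPM summed to 1.95 times the Pdha1 TPM in endostatin 4, against 0.351 to 0.801 times in the other libraries.

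The carrier gene Mpc1 had the lowest fold change of the set. It stood at 140 and 82.1 CPM in endostatin 3 and 4, against 144 and 260 CPM in control 3 and 4. Batch 1 had 269 and 208 CPM in endostatin 1 and 2, against 367 and 169 CPM in control 1 and 2. Both endostatin libraries lay below both controls in batch 2, and the groups overlapped in batch 1. The log2 fold change was -0.86 ± 0.46 in batch 2, -0.17 ± 0.46 in batch 1 and -0.52 ± 0.33 over both (95% interval -1.28 to 0.24). A processed copy, Mpc1-ps, was assigned 18 and 52.6 estimated counts in control 3 and 4 and 0 in the other 6 libraries, so the division of reads between Mpc1 and this copy is uncertain there.

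Mpc2, the partner subunit, stood at 99.9 and 79.5 CPM in endostatin 3 and 4, against 93.7 and 128 CPM in control 3 and 4. For Mpc2 in batch 1 the values were 139 and 115 CPM in endostatin 1 and 2, against 193 and 102 CPM in control 1 and 2. Its log2 fold change was -0.26 ± 0.21 (95% interval -0.75 to 0.22), and the groups overlapped in both batches. In TPM, Mpc1 exceeded Mpc2 in every library, by 1.68 and 1.26 times in endostatin 3 and 4, 1.87 and 2.44 times in control 3 and 4, 2.40 and 2.29 times in endostatin 1 and 2, and 2.33 and 2.01 times in control 1 and 2.

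**Figure D4:**
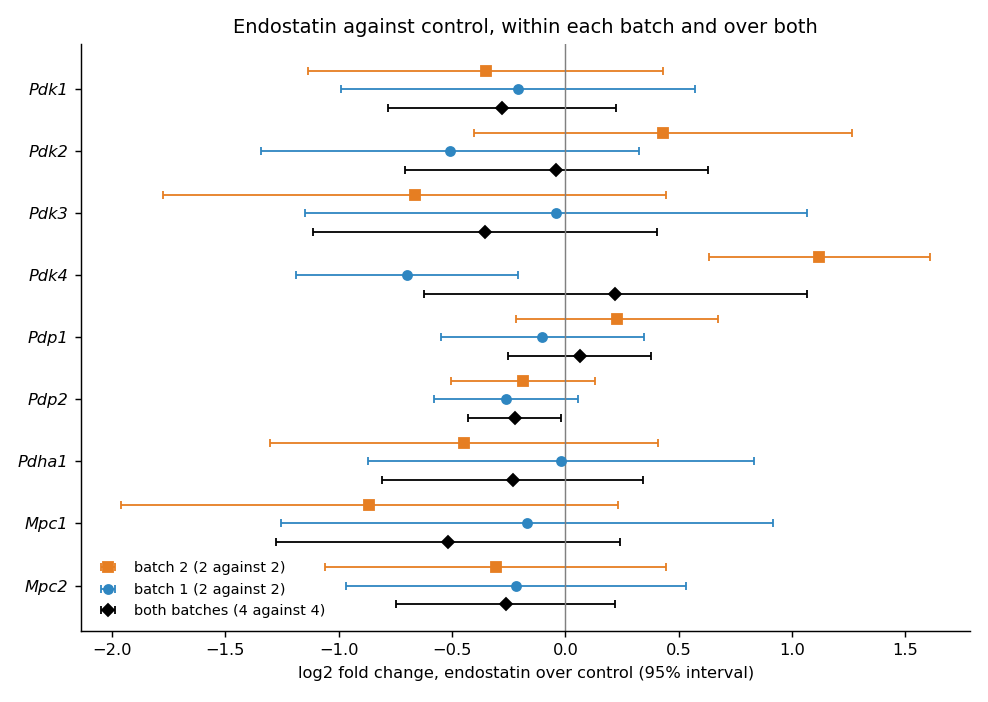
Log2 fold change of each gene, endostatin over control, with 95% intervals from edgeR, in batch 2 (squares, 2 against 2 libraries), in batch 1 (circles, 2 against 2) and over both (diamonds, 4 against 4). The intervals of Pdk4 lie on opposite sides of 0 in the batches (0.63 to 1.61 and -1.19 to -0.21), and those of the other members span 0 in each batch.

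Over both batches 7 of the 9 members had a fold change below 0 and 2 above, with a median of -0.23, against a median of -0.01 for all genes tested, of which 7077 lay above 0 and 8108 below. No member passed edgeR's adjusted threshold for endostatin against control, and neither did any gene (0% of 15185). By other tools 4 genes passed with DESeq2 and 0 with limma-voom. For the difference of the endostatin effect between batches, edgeR again called 0 genes (527 at an unadjusted p under 0.05), while DESeq2 called 28 with Pdk4 among them and limma-voom 0. For batch 2 against batch 1, 6 genes passed (0.0395%), and none was a member. Controls 1 and 4 carried the muscle transcripts, and without both of them Pdk1, Pdha1, Mpc1 and Mpc2 turned positive (0.16, 0.14, 0.04 and 0.13), leaving 6 members above 0 and 3 below. The median over the members was -0.096 without control 1 alone, -0.10 without control 4 alone and -0.42 without control 2. The part of the muscle transcripts in these values was not tested. Against batch 1, batch 2 had log2 differences of -0.75 ± 0.33 for Mpc1, -0.51 ± 0.22 for Pdk1, -0.46 ± 0.21 for Mpc2, -0.45 ± 0.25 for Pdha1 and -0.22 ± 0.09 for Pdp2. Those 5 stayed below 0 in all 18 alternatives to this fit, whereas Pdk2, Pdk3 and Pdp1 (0.02, 0.21 and 0.03) changed sign in some.

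The remaining genes of the complex and of the cycle it feeds had fold changes on the same side of 0 as Pdha1, but none passed the threshold. Of 8 genes for the other subunits, the phosphatase regulator and lipoylation, 8 were below 0 after endostatin (median -0.23) and 8 were below 0 in batch 2 against batch 1 (median -0.29). Pdhx, the subunit that binds E3 to the core, averaged 41.7 ± 6.65 CPM in the endostatin group and 51.4 ± 10.5 CPM in the control group (SD, n = 4 each), a log2 fold change of -0.31 ± 0.15. Lipt1, a lipoyl transferase, had -0.35 ± 0.17. Of 10 genes for citrate formation and the entry of the cycle, 10 were below 0 after endostatin (median -0.21) and 10 in batch 2 against batch 1 (median -0.25). Idh3g, a subunit of isocitrate dehydrogenase, had a log2 fold change of -0.24 ± 0.14. Without control 1 and control 4, the libraries rich in muscle markers, the counts were 4 above and 4 below 0 for the first list and 7 above and 3 below for the second. Without endostatin 4 the endostatin medians were -0.12 and -0.086. Endostatin 4 and control 3 had the highest sums of oviduct and uterus markers. With both left out, the batch counts were 2 higher and 6 lower for the first list (median -0.067). For the second list they were 4 higher and 6 lower (median -0.039).

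Pyruvate has other sources and fates, and 15 genes for them were listed, of which 14 were tested and Pklr was below the count filter. After endostatin 3 lay above 0 and 11 below (median -0.11), and without control 1 and control 4 these were 10 above and 4 below (median 0.14). Me2, a mitochondrial malic enzyme that makes pyruvate from malate, stood at 26.8, 22.4, 23.2 and 22.1 CPM in endostatin 1 to 4, against 28.6, 29.7, 28.1 and 27.2 CPM in control 1 to 4. These groups did not overlap, as in 1.64% of all genes, and the log2 fold change was -0.27 ± 0.09. Slc16a3, a lactate and pyruvate exporter, averaged 2.86 ± 1.64 CPM in the endostatin group and 1.99 ± 0.53 CPM in the control group. The related branched-chain ketoacid complex, which has its own kinase and phosphatase, had 1 of 5 genes above 0 and 4 below (median -0.07). Without control 4 it had 4 above and 1 below (median 0.086), and without control 1 and control 4 it had 5 above and 0 below (median 0.066). Its subunit Bckdha had -0.17 ± 0.17 and its phosphatase Ppm1k 0.15 ± 0.22.

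Lists of genes that act on Pdk4 or share its known inducers were set beside it. Of 11 transcriptional regulators known to act on Pdk4, 3 lay above 0 after endostatin and 8 below (median -0.07). Without control 4 they were 6 above and 5 below (median 0.015), and without control 1 and control 4 they were 8 above and 3 below (median 0.10). Foxo3, a forkhead factor, had 0.15 ± 0.10, and Esrra, the estrogen-related receptor alpha, had -0.72 ± 0.51, with 5.85 CPM in endostatin 4 against 26.6 to 57.1 CPM in the other libraries. Cebpb, which encodes C/EBP beta and is named after its values were seen, stood at 104 and 99.1 CPM in endostatin 3 and 4 and 69.3 and 94.7 CPM in control 3 and 4, then at 60.9 and 62.6 CPM in endostatin 1 and 2 and 83.7 and 76.3 CPM in control 1 and 2. It had the pattern of Pdk4, without overlap in either batch, as did Klf9 of the glucocorticoid-responsive genes and Bnip3 of the hypoxia targets, both likewise named after their values were seen. This is 1 gene in each of these 3 lists (of 11, 11 and 10 tested), against 1.87% of all genes. The lists of complex subunits, pyruvate sources, citrate and cycle entry, branched-chain genes, and fasting and PPAR targets held 0 such genes. Of 18 fasting and PPAR target genes 17 were tested (Fgf21 was not), and 7 lay above and 10 below 0 (median -0.04), or 11 above and 6 below (median 0.070) without control 1 and control 4. Among them Cpt1a, which admits fatty acids to mitochondria, stood at 97.3, 92.5, 104 and 127 CPM in endostatin 1 to 4, against 77.0, 90.8, 79.5 and 83.0 CPM in control 1 to 4, without overlap. Its log2 fold change was 0.34 ± 0.11, against -0.26 ± 0.12 for Hadha, an enzyme of the same oxidation pathway. Neither passed after adjustment.

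The batch difference was read over the same lists. Of 11 glucocorticoid-responsive genes, 8 were higher and 3 lower in batch 2 than in batch 1 (median 0.52, against 0.01 for all genes), and after endostatin 4 lay above and 7 below 0 (median -0.11), or 8 above and 3 below (median 0.24) without control 1 and control 4. Of the fasting and PPAR targets, 12 were higher and 5 lower in batch 2 (median 0.24). That median was 0.080 without endostatin 4, 0.13 without endostatin 1, 0.14 without control 4, and 0.38 and 0.41 without control 1 and control 3. Cdkn1a, a cell cycle inhibitor, stood at 38.2 and 44.6 CPM in endostatin 3 and 4, 22.8 and 22.0 CPM in control 3 and 4, 14.1 and 17.3 CPM in endostatin 1 and 2, and 16.3 and 16.2 CPM in control 1 and 2. Like Pdk4, Cdkn1a was higher in every library of batch 2 than in any of batch 1. So was Sgk1 of the same list, while the remaining genes of that list overlapped between batches. Of all genes, 3.13% lay higher in batch 2 in this way. Dusp1, a phosphatase of MAP kinases, averaged 102 ± 39.7 CPM in the endostatin group and 76.3 ± 29.6 CPM in the control group, and these overlapped. Of 11 hypoxia targets 10 were tested (Ankrd37 was not), and 6 lay above 0 after endostatin and 4 below (median 0.10), among them Vegfa at 0.30 ± 0.16 and Adm, the adrenomedullin gene, at 0.59 ± 0.25. The endostatin median of this list turned to -0.062 without control 3 (4 above and 6 below 0) and to -0.0065 without endostatin 4 (5 above and 5 below). Leaving out control 1 turned the endostatin median of the glucocorticoid-responsive genes to 0.14, of the fasting and PPAR targets to 0.11 and of the regulators to 0.00064. Without endostatin 1 it was 0.0096 for the glucocorticoid-responsive genes and 0.065 for the fasting and PPAR targets, and without control 4 it was 0.0072 for those targets. In batch 2 against batch 1, 4 of the hypoxia targets were higher and 6 lower (median -0.15), and their median was 0.0028 without control 3.

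**Figure D5:**
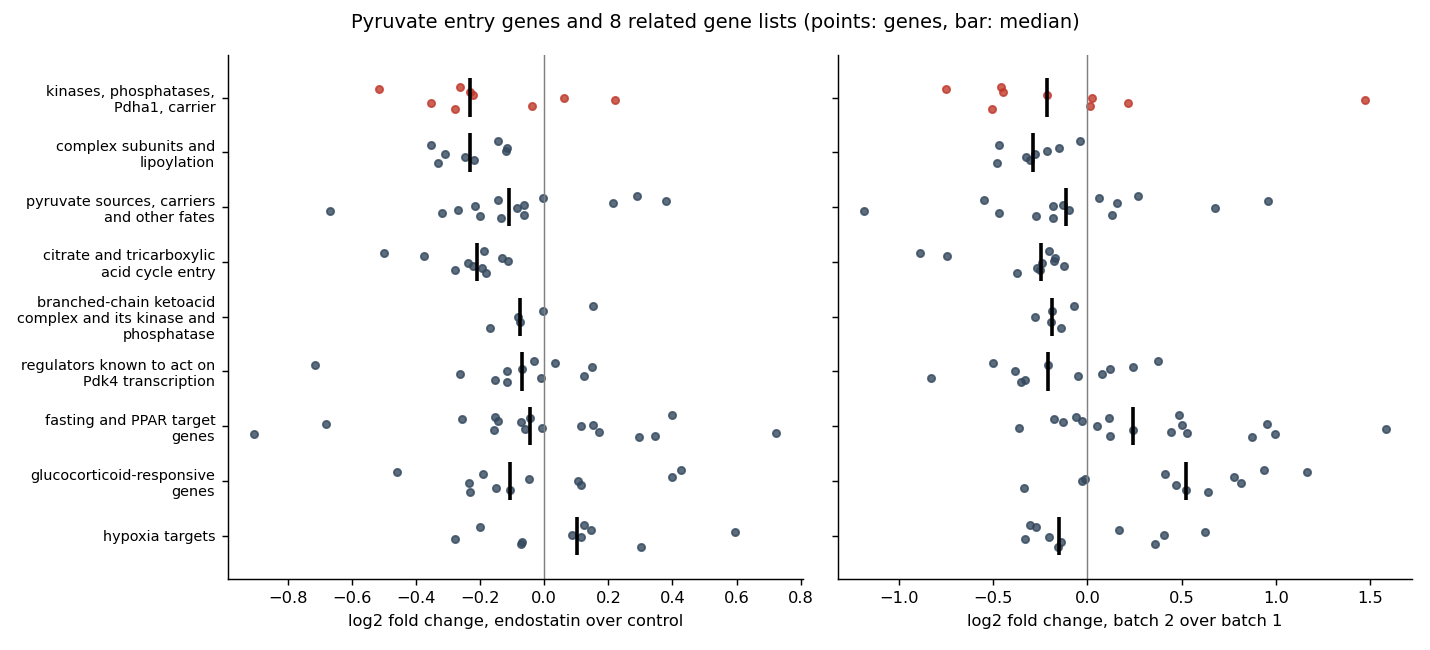
Log2 fold changes of the 9 genes (top row) and of the 8 related lists, for endostatin over control (left) and for batch 2 over batch 1 (right). Points are genes and bars are medians. The glucocorticoid-responsive genes have a median of -0.11 on the left and 0.52 on the right, and Pdk4 is the top-row point at 1.47 on the right.

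The genes whose level followed that of Pdk4 most closely over the 8 libraries, out of the 9876 genes that averaged 10 CPM or more, were Gm10241 and Slc10a6 (Pearson r = 0.973 each, on log2 CPM), Mafg (0.964), Cdkn1a (0.960) and Ddit4 (0.958). Cdkn1a is also 1 of the 11 glucocorticoid-responsive genes above, and no other gene of that list was among these 5. For Mpc1 they were Srebf1 (0.986), the factor that drives lipogenic genes, and Apoo (0.983), and for Pdha1 Psmd1 (0.990) and Zdhhc5 (0.989). Pdk2 was followed most closely by Fmo5 (0.975) and Acsm3 (0.965), Pdk1 by Zbtb18 (0.978) and Fcf1 (0.977), and Pdk3 by Supt16 (0.967) and Gdpd5 (0.965). For Pdp1 they were Gng11 (0.905) and Ric8a (0.904), for Pdp2 Ndufa6 (0.959) and Dym (0.957), and for Mpc2 Tbc1d19 (0.976) and Dnajb4 (0.967). These values describe 8 libraries that share batches and tissue make-up, and with so many genes searched, high values arise readily.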

How the data were processed

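RNA of white adipose tissue was freed of ribosomal RNA and sequenced from strand-marked libraries, per the labels' protocols. The authors deposited one transcript table per library, with estimated counts and TPM from Salmon on GRCm39, per the submitters' processing notes. Its version and transcript index were not given in the sources used here. Deposited effective transcript lengths, the length scale of the TPM, were used in 1 alternative. Each table lists 115620 transcripts. Their identifiers were matched to GENCODE M21, used for names and types alone: 113664 (98.31%) matched and 1956 were kept as their own features. No coordinates of the files are printed, and promoter coordinates belong to RefSeq's GRCm38.p6 table.

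The estimated counts of a gene's transcripts were added and rounded. After filterByExpr (minimum count 10), 15185 genes remained. They were scaled by TMM and fitted in edgeR 4.0.16 (R 4.3.3), whose quasi-likelihood test was applied to a model of batch and treatment. A model with their interaction gave the fold changes within batches. P-values were two-sided and adjusted by Benjamini-Hochberg, with calls made at 0.05. Intervals are 95% and SD are over libraries. A count of 0 allows 3 counts, 0.126 to 0.19 CPM per library, for counting error only. Likeness of pattern used log2 CPM with a prior count of 2, naming 5 genes for Pdk4 and 2 for each other member. In each list, the 2 genes with the smallest unadjusted p were named, except that 1 is not reported here. Members, gene lists and tests were chosen with earlier results of these data known. Alternatives used DESeq2 1.42.0, limma-voom (limma 3.58.1), other scalings and filters, protein-coding transcripts alone, a replicate block and leaving out libraries. The scripts were tested on simulated data.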

Additional observations from a re-analysis of the deposited data

Results flagged for a closer look

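Pdk4 moved in opposite directions in the batches: its log2 fold change after endostatin was 1.12 in batch 2, where both endostatin libraries lay above both controls, and -0.698 in batch 1, where both lay below. The difference was not tested as evidence, because Pdk4 was listed with it known. Of all genes tested, 1.87% had the same pattern without overlap.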

How the results depend on the processing

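The counts of genes past the threshold depended on the tool. For endostatin against control edgeR called 0 genes (485 at an unadjusted p under 0.05), limma-voom 0 and DESeq2 4. For the difference of the endostatin effect edgeR called 0 (527 at an unadjusted p under 0.05) and DESeq2 28, Pdk4 among them. For batch 2 against batch 1, edgeR called 6, against 2 with library sizes alone, 11 without a count filter, 171 with DESeq2, 10 with limma-voom, 27 without control 3 and endostatin 4, 0 without control 1 and control 4, and 0 to 18 when each library was left out in turn. The cause of these changes was not tested. The neighbouring pairs of member levels that passed numbered 4 to 6 when each library was left out, against 5 with all. Among other named genes, Slc16a3 turned to -0.077 with effective length offsets, Bckdha to 0.045 without control 1 and control 4, and Ppm1k to -0.12 without control 3 and endostatin 4, to -0.0046 without control 3 and to -0.040 without endostatin 4 (range with each library left out -0.040 to 0.37). Of the members, Pdp2 alone kept the sign of its overall fold change in all 20 alternatives.

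Replicate numbers showed no clear pairing of the samples. Deviations of same-numbered libraries correlated at 0.211, 0.144, -0.0731 and -0.295, and 1 of 4 numbers correlated best with its own. The deviations were taken from the group means with batch left in, so these values cannot decide whether the samples were paired. With a replicate block edgeR called 0 genes for endostatin (307 at an unadjusted p under 0.05) and 0 for the difference of the effects (408), and the difference for Pdk4 was 1.81. With 2 libraries per group and batch, the 95% interval of a low gene such as Pdk3 ran from -1.77 to 0.45 in batch 2.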
